A study of Xenopus laevis with 6 samples.

Results

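Captured RNA of translation-blocked frog embryos at 7.5 hours post fertilization (hpf) was compared, gene by gene, with that of untreated embryos at 5 hpf, the moment the block began. The comparison used 4 of the 6 libraries of the series and covered the 19149 of 50489 listed genes whose mean value was at least 12 over the 6 libraries. All libraries came from wild-type Xenopus laevis of 1 clutch, raised at 22 °C and labelled as blastulae. Every embryo, controls included, carried 5-ethynyl uridine (EU): 10 nl of a 50 mM stock had been injected into it when it was 1 cell, for a final concentration near 0.5 mM. EU is a uridine analogue that cells build into RNA and that lets labelled molecules be biotinylated and pulled down on beads. The 2 CHX libraries came from embryos held in 0.2 mg/ml cycloheximide (CHX) between 5 and 7.5 hpf, the 2 control 5 hpf libraries from embryos before that interval, and the 2 control 7.5 hpf libraries from untreated embryos of the later age, whose values are given beside the others. Protein synthesis was not measured in these data, so the block is known from the labels alone.

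In the early frog embryo the nucleus is nearly silent through rapid cleavages that run on RNA and protein stored in the egg. Around the mid-blastula stage the zygotic genome is switched on, the cell cycle lengthens, and regulators of the germ layers begin to be transcribed. Cycloheximide stops the ribosome from moving along the message. A transcript that appears while it is present can be made with proteins that already existed, which is the classical use of the drug in searching for direct targets. The drug is also known to stabilize some short-lived messages, so a higher level of captured RNA is a level and not a rate.

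The values are read counts that the authors divided by 1 factor per library and rounded, and they sum to between 6680033 and 7742693 per library. A single read counted for an estimated 1.85 and 2.31 units at 5 hpf but for 0.649 and 0.446 in the CHX libraries, so low transcripts were harder to see at 5 hpf, and values were above 0 for 21728 and 22324 genes against 25439 and 25264. The 27 genes of the blastula marker list summed to 26483 and 27093 at 5 hpf and 40768 and 37803 in CHX. Lens and eye markers were at 0 in every library, and those of blood summed to at most 16 in the 4 libraries compared. Markers of muscle moved from 0 and 2 to 137 and 85 and those of neurons from 24 and 0 to 152 and 198, while ovarian somatic markers stayed between 294 and 458. The part these play in the results was not tested. In whole embryos, fewer cells of a type and less RNA per cell cannot be told apart, and because the replicates share a clutch, the p-values speak only of the spread among these libraries.

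Of the 19149 genes, 1101 were higher in CHX than at 5 hpf (5.75% of those tested) and 49 were lower (0.256%), by limma with a Benjamini-Hochberg adjusted p under 0.05 on log2(value + 1). Among the higher genes, 374 were listed at 0 in both control 5 hpf libraries. Of the other 727, 641 were up at least 2-fold, 528 at least 4-fold and 327 at least 16-fold on that scale. These 727 include genes barely seen at 5 hpf, such as foxi4.2.L at 2 and 0, whose fold depends on the added 1. The falls were shallower, with 24 of the 49 down at least 2-fold and 2 at least 4-fold. Both CHX values lay above both 5 hpf values in all 1101 higher genes and below both in all 49 lower ones. That separation therefore adds no support to the call of a single gene. Genes called higher took up 3.97% and 4.25% of all captured signal at 5 hpf and 14.1% and 10.8% in CHX, beside 14.2% and 10.7% in control embryos at 7.5 hpf. The share of the genes called lower went from 1.23% and 1.10% at 5 hpf to 0.565% and 0.564% in CHX, beside 1.11% and 0.919% in the 7.5 hpf controls. Both sets were picked by their CHX and 5 hpf values, so these shares describe the sets and support nothing by themselves. The median log2 fold change over all tested genes was 0.02, and the 2 CHX values lay above both 5 hpf values in 5110 genes (26.7%) and below both in 4070 (21.3%). The authors' scaling evens out the typical gene between libraries (median ratio to the gene mean 0.9996 to 1 in each). A median near 0 is therefore set by the scaling. A rise or fall shared by all captured RNA cannot be seen, and every change given here is relative to that scaling.

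**Figure D1:**
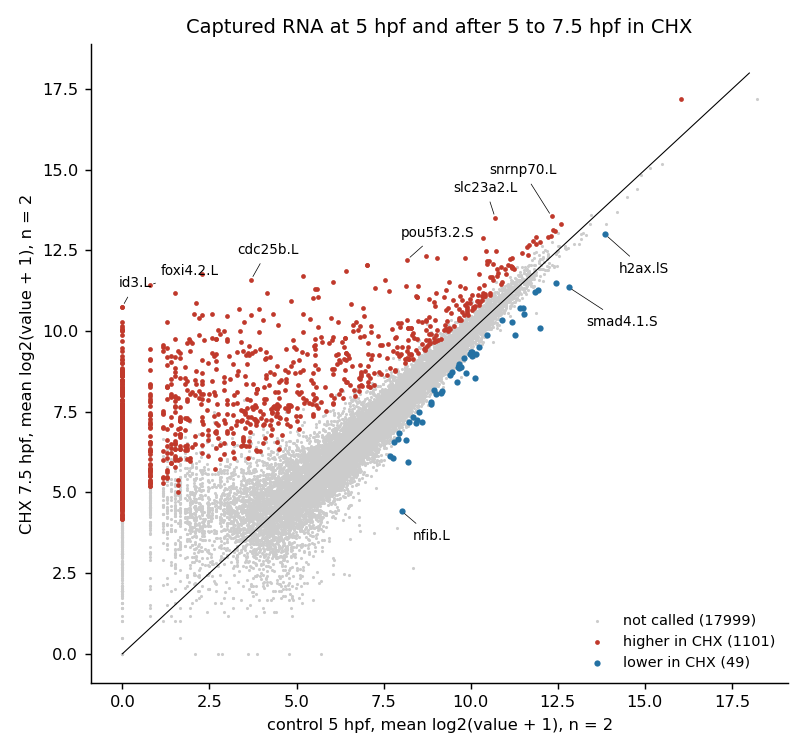
Each point is 1 of the 19149 tested genes, with the mean log2(value + 1) of the 2 control 5 hpf libraries on the horizontal axis and that of the 2 CHX 7.5 hpf libraries on the vertical axis. Red points are the 1101 genes called higher, spread from 0 at 5 hpf upward, and blue points the 49 called lower, which lie close under the diagonal of equal values.

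Neither control 5 hpf library gave signal for 658 of the tested genes, the 374 higher ones included. Such a gene passed the filter through the later libraries and could not lie below 5 hpf. These genes are therefore described by their values, no fold is given, and their number in a list's calls supports nothing by itself. With all libraries thinned to the estimated depth of the shallowest, 988 genes were called higher and 36 lower. A fold change of a single gene is printed only where both control 5 hpf values, which are rounded, were at or above that of 3 reads (5.54 and 6.94 units). Fold counts and medians over sets of genes also include genes below that. Of the 727 higher genes with signal at 5 hpf, 179 already had a mean of at least 200 at 5 hpf, and their median log2 fold change was 1.01, whereas the median over all 727 was 3.68. The 49 lower genes all began at substantial levels, with 5 hpf means from 203.5 to 14970 and a median of 806. Identifiers without a gene symbol made up 320 of the higher and 15 of the lower genes, against 3380 of all those tested.

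The number of calls rested heavily on single libraries. Without CHX replicate 1 the counts were 78 higher and 1 lower, and without CHX replicate 2 they were 298 and 5. Without control 5 hpf replicate 1 or replicate 2 they were 804 and 9, and 853 and 13. Without control 7.5 hpf replicate 1 or 2 they were 1240 and 79, and 1265 and 76. The same 19149 genes were tested in each of these fits. CHX replicate 1 also stood above replicate 2 in 975 of the 1101 higher genes (88.6%), against 52.8% of all tested genes, and control 7.5 hpf replicate 1 above its replicate 2 in 911 of them, and the part of this in the calls was not tested. With a lone library in a group, the fit assumes that it varies as the other groups do.

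Regulators of the ectoderm, the outer layer that forms skin and nervous system, made up the list with the most higher genes. The table held 113 listed ectodermal, neural and neural border genes and 85 of them were tested. Of these 85, 58 were called higher (68.2%, beside 5.75% of all genes), 24 of them listed at 0 at 5 hpf. The other 27 were not called in either direction, and 69 of the 85 had an unadjusted p under 0.05 (limma). Their median log2 fold change was 6.19, or 4.45 with genes at 0 set to the value of 3 reads, beside 0.02 for all genes. In controls over the same interval the median of these 85 was 1.40, or 0.868 with genes at 0 set to the value of 3 reads. There 34 were called higher (5.9% of all genes). Some of the 85 passed the filter only through the CHX libraries, so the gap between the CHX and control medians supports nothing by itself. In the direct contrast of CHX with control embryos at 7.5 hpf, 15 of the 85 were called higher in CHX, beside 0.198% of all genes, and 7 of the 15 would have passed the filter with the CHX libraries at 0.

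Among the epidermal members, foxi4.2.L, a forkhead gene needed for the formation of ectoderm in Xenopus, stood at 2 and 0 at 5 hpf and at 3592 and 2113 in CHX, with 2950 and 1337 in 7.5 hpf controls. Its S copy was already visible at 66 and 19 and reached 3966 and 2857, a log2 fold change of 6.52 ± 0.54 (SE, n = 2 against 2). CHX and 5 hpf values did not overlap for either copy, whereas CHX and 7.5 hpf control values did. The epidermal differentiation factor gene grhl3.L went from 0 and 0 to 1449 and 1059, above the 671 and 244 of untreated embryos at 7.5 hpf. Its S copy went from 0 and 0 to 667 and 453, overlapping the 569 and 198 of those embryos. The contrast at 7.5 hpf was called in neither copy (adjusted p = 0.405 for L and 0.783 for S, limma).

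For the forkhead gene foxi1.S, tied to the ion-transporting cells of the skin, CHX stood far above both control stages: 0 and 0 at 5 hpf, 1169 and 953 in CHX, and 59 and 34 in untreated embryos at 7.5 hpf. The homeobox gene dlx5.L, which marks the rim of the neural plate, showed the same order, with 0 and 0, then 1219 and 1079 in CHX and 89 and 36 in controls. Its S copy rose by 5.72 ± 0.53 on the log2 scale, from 11 and 39 to 1383 and 966 (adjusted p = 9.95e-05, limma), with 810 and 344 in controls. The proneural gene neurog1.L, a basic helix-loop-helix factor of nerve cell precursors, was listed at 0 and 0 at 5 hpf, at 2 and 17 in untreated embryos at 7.5 hpf, and at 1500 and 793 in CHX. No CHX library overlapped any control library for these 4 genes. However, neurog1.L passed the filter only through the CHX libraries, so its separation supports nothing by itself. For dlx5.S the contrast at 7.5 hpf was not called (adjusted p = 0.625, limma).

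Among neural genes with signal at 5 hpf, lhx5.L and sox3.S rose. The LIM homeobox gene lhx5.L, a forebrain regulator, went from 7 and 7 to 930 and 721, a log2 fold change of 6.68 ± 0.39 (adjusted p = 7.5e-06, limma), with 462 and 226 in 7.5 hpf controls. The SoxB1 factor gene sox3.S, supplied by the mother and kept on in the neural ectoderm, went from 2943 and 3588 to 6962 and 6187, a change of 1.01 ± 0.24 (adjusted p = 0.035). It was the most abundant member of the list and the groups did not overlap. Of the 58 higher genes on the list, 8 kept their call without CHX replicate 1 and 28 without CHX replicate 2. Of the 11 genes named here, foxi4.2.S, foxi1.L, dlx5.S, neurog1.L and sox3.S lost it without CHX replicate 1 (adjusted p from 0.0508 to 0.529), and sox3.S alone without CHX replicate 2 (0.289) or control 5 hpf replicate 1 (0.265) or 2 (0.0968). The L copy of foxi1 counted here stood at 2 and 0 at 5 hpf and at 770 and 410 in CHX, with 563 and 118 in 7.5 hpf controls. Unlike foxi1.S, its CHX values overlapped those controls, and the contrast at 7.5 hpf was not called (adjusted p = 0.739, limma).

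Bone morphogenetic proteins (BMPs) are secreted signals that set ventral and epidermal fate, and Id and Ventx genes are among their direct nuclear outputs. Of 59 listed pathway genes 50 were tested and 22 were called higher (44%, beside 5.75% of all genes), 6 of them listed at 0 at 5 hpf. The other 28 were not called. The median log2 fold change was 2.15, and 0.49 in controls over the interval. In the direct contrast of CHX with control embryos at 7.5 hpf, 0 of the 50 were called in either direction. The gene id3.L encodes an inhibitor of basic helix-loop-helix factors. It was listed at 0 and 0 at 5 hpf, at 2124 and 1410 in CHX and at 1301 and 525 in 7.5 hpf controls. Its S copy went from 0 and 0 to 1362 and 797, with 768 and 247 in controls. The ventral homeobox repressor gene ventx1.2.L went from 0 and 0 to 868 and 513, and ventx1.2.S from 0 and 0 to 470 and 393. In all 4 cases, as in every gene called higher, both CHX libraries stood clear of 5 hpf. The most abundant member, id2.S, had 8543 and 7461 at 5 hpf and 7379 and 6020 in CHX and was not called (adjusted p = 0.67). Of the 22 calls 7 and 9 were kept without CHX replicate 1 and replicate 2.

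Notch signalling passes between neighbouring cells: Delta ligands on one cell activate the Notch receptor on the next, and Hes repressors are the usual targets. Of 62 listed genes 50 were tested and 28 were called higher (56%, beside 5.75% of all genes), 5 of them listed at 0 at 5 hpf. The other 22 were not called, and 37 of the 50 had an unadjusted p under 0.05. The median log2 fold change was 4.0, or 2.79 with genes at 0 set to the value of 3 reads, beside 1.11 and 0.904 in controls over the interval. In the direct contrast at 7.5 hpf, 7 of the 50 were called higher in CHX than in controls, beside 0.198% of all genes. Of the 7, 6 would have passed the filter with the CHX libraries at 0.

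The Delta gene dlc.L stood at 2 and 7 at 5 hpf, at 1909 and 1105 in CHX and 67 and 97 in controls at 7.5 hpf (adjusted p against 5 hpf 1.3e-05, limma). The Delta gene dll1.L went from 6 and 5 to 569 and 515, with 92 and 43 in controls. Its S copy went from 4 and 0 to 968 and 602, with 263 and 83 in controls. For all 3 the CHX libraries lay above every control library. The contrast at 7.5 hpf was not called for dll1.S (adjusted p = 0.431, limma). The repressor gene hes7.2.L rose from 64 and 35 to 2701 and 2343, a log2 fold change of 5.70 ± 0.38, and hes7.2.S went from 6 and 0 to 394 and 277. The receptor gene notch1.S, the most abundant member, had 1452 and 1390 at 5 hpf and 1940 and 1918 in CHX and was not called (0.44 ± 0.14, adjusted p = 0.11). The list kept 2 of its 28 calls without CHX replicate 1, with dll1.L, dll1.S and hes7.2.S among those lost (adjusted p from 0.0525 to 0.101). It kept 11 without CHX replicate 2, and hes7.2.S was lost (0.0578).

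The dorsal organizer is the signalling centre that patterns the gastrula, and most of its listed genes were higher in CHX. Of 39 listed genes 35 were tested and 27 were called higher (77.1%, beside 5.75% of all genes), 15 of them listed at 0 at 5 hpf. The other 8 were not called, and 32 of the 35 had an unadjusted p under 0.05. The median log2 fold change was 5.89, or 3.85 with the 17 members at 0 set to the value of 3 reads, beside 5.27 and 4.49 in controls over the interval. The head homeobox gene crx.S was at 0 in both 5 hpf libraries, 2167 and 1362 in CHX and 393 and 176 in 7.5 hpf controls, and crx.L went from 0 and 5 to 1572 and 981, with 250 and 87 in controls. CHX libraries stood above all controls for both copies, though the contrast at 7.5 hpf was not called for either (adjusted p = 0.054 for crx.S and 0.22 for crx.L).

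The forkhead gene foxa4.L, active in notochord and floor plate, had 0 and 0 at 5 hpf, 454 and 241 in CHX and 1449 and 417 in controls, so that CHX and controls at 7.5 hpf overlapped and the contrast between them was not called (adjusted p = 0.654). Its S copy went from 0 and 2 to 184 and 104, with 1179 and 384 in controls. The notochord homeobox gene not.S rose from 37 and 51 to 2655 and 1656, a change of 5.56 ± 0.38, and not.L from 358 and 356 to 3080 and 2376, a change of 2.92 ± 0.26 (adjusted p = 7.99e-05, limma). All these CHX values lay above both 5 hpf libraries, as in every gene called higher. Of the 27 higher genes 5 kept their call without CHX replicate 1, with crx.L, foxa4.S and not.L among those lost (adjusted p from 0.0525 to 0.0955), and 13 kept it without CHX replicate 2.

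Transcription factors of mesoderm and endoderm had the largest share of called members, 44 of the 56 tested out of 73 in the table (78.6%, beside 5.75% of all genes). Of the 44, 19 were listed at 0 at 5 hpf. The other 12 were not called, and 52 of the 56 had an unadjusted p under 0.05. The median log2 fold change was 5.54, or 3.99 with genes at 0 set to the value of 3 reads, beside 4.24 and 3.0 in controls. The homeobox gene mix1.L, an immediate response to activin and nodal signals, rose from 35 and 42 to 725 and 546 (log2 fold change 4.0 ± 0.32, adjusted p = 4.2e-05, limma) and reached 3610 and 1697 in untreated embryos. Its S copy went from 44 and 14 to 891 and 536, with 2979 and 1454 in controls. For both copies CHX lay between the 2 control stages without touching either.

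The related homeobox gene bix1.3.S followed the same order, from 13 and 16 to 803 and 596, with 2504 and 1372 in controls (5.49 ± 0.31 against 5 hpf). In bix1.3.L the values were 26 and 32, then 629 and 444, with 2867 and 1218 in controls. The zinc finger repressor gene prdm1.S went from 0 and 0 to 1169 and 902 in CHX and 455 and 142 without the drug, and prdm1.L from 13 and 0 to 997 and 760. For bix1.3 and prdm1 the contrast at 7.5 hpf was called in neither copy (adjusted p from 0.0702 to 0.408). The endoderm determinant gene sox17b.1.L rose by 3.58 ± 0.31, from 87 and 109 to 1247 and 1115, with 2148 and 981 in controls. The most abundant member, the Sox factor gene sox7.L, was not called at 991 and 1040 at 5 hpf and 1027 and 1001 in CHX (adjusted p = 0.998). The list kept 4 of its 44 calls without CHX replicate 1, losing mix1.S, bix1.3.L, prdm1.L and sox17b.1.L among others (adjusted p from 0.0508 to 0.14), and without CHX replicate 2 it kept 19, losing prdm1.L (0.0887).

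Nodal ligands are the secreted signals that induce mesoderm and endoderm, with Lefty as their feedback inhibitor and Smad proteins as the relay to the nucleus. Of 43 listed genes 34 were tested. Of these, 6 were called higher (17.6%, beside 5.75% of all genes), 4 of them listed at 0 at 5 hpf. Of the rest, 1 was called lower, beside 0.256% of all genes, and 27 were not called. The median log2 fold change was 0.47, and 0.44 in controls. The inhibitor gene lefty.L was at 0 in both 5 hpf libraries, 485 and 316 in CHX and 455 and 168 in controls. Its S copy rose from 9 and 16 to 175 and 147, a change of 3.63 ± 0.60 (adjusted p = 0.0041, limma). The ligand gene nodal2.L went from 0 and 0 to 108 and 42, with 78 and 53 in controls. CHX and untreated embryos of the same age overlapped for nodal2.L and lefty.L. The lower member was the relay gene smad4.1.S, at 8557 and 6096 at 5 hpf and 2173 and 3156 in CHX, which is taken up with the other falls. Without CHX replicate 1 lefty.L alone of the 6 higher calls was kept (lefty.S and nodal2.L had adjusted p of 0.21 and 0.13) and the call of smad4.1.S was lost, while without CHX replicate 2 the calls of 2 higher members were kept and that of lefty.S was lost (0.128).

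Fibroblast growth factor (FGF) and Wnt signals act beside nodal in the mesoderm and later in the posterior axis. Of 54 FGF and ERK feedback genes 41 were tested. Of these, 10 were called higher (24.4%, beside 5.75% of all genes), 2 of them listed at 0 at 5 hpf. The other 31 were not called. The median log2 fold change of the 41 was 0.94, or 0.70 with genes at 0 set to the value of 3 reads, beside 0.57 in controls either way. The ligand gene fgf8.L rose from 9 and 14 to 890 and 454, with 886 and 501 in controls (5.70 ± 0.41 against 5 hpf, adjusted p = 2.1e-05, limma), and fgf8.S went from 15 and 0 to 1062 and 590. The receptor gene fgfr4.L rose by 1.97 ± 0.22, from 213 and 240 to 965 and 822, and lay above the 342 and 254 of untreated embryos. Its S copy rose from 344 and 277 to 1173 and 1017. The adhesion and FGF receptor modulator gene flrt3.L had 0 and 0 at 5 hpf, 129 and 53 in CHX and 386 and 309 in controls, so that CHX lay between the control stages, and flrt3.S was at 0 and 0, 29 and 20, and 105 and 60.

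Among 69 Wnt pathway genes 62 were tested. Of these, 14 were called higher (22.6%, beside 5.75% of all genes), 6 of them listed at 0 at 5 hpf. Of the rest, 1 was called lower, beside 0.256% of all genes, and 47 were not called (median 0.23, and 0.09 in controls). The zinc finger gene sp5l.L, a target of Wnt and FGF signals, had 0 and 0 at 5 hpf, 640 and 300 in CHX and 1515 and 535 in controls, and sp5l.S went from 0 and 0 to 447 and 276. The Wnt receptor gene fzd10.L rose from 9 and 7 to 625 and 405 (5.82 ± 0.52), and fzd10.S from 0 and 12 to 319 and 178. The effector gene ctnnb1.L, which encodes beta-catenin and is the most abundant member, was not called at 2266 and 2269 at 5 hpf and 2572 and 2545 in CHX (adjusted p = 0.62). The FGF list kept 1 call and the Wnt list 2 without CHX replicate 1, with fgfr4.L, fgfr4.S, fgf8.S, flrt3.L, flrt3.S, fzd10.L and fzd10.S lost (adjusted p from 0.0573 to 0.33). Without CHX replicate 2 they kept 3 and 5, with fgfr4.S, fgf8.S, flrt3.S and fzd10.S lost (0.0733 to 0.172).

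Pluripotency and genome activation factors are proteins that keep early cells uncommitted and open the embryo's genome for transcription. Of 72 listed 70 were tested, with 29 called higher (41.4%, beside 5.75% of all genes), 5 of them listed at 0 at 5 hpf. The other 41 were not called, and 34 of the 70 had an unadjusted p under 0.05. The median log2 fold change was 0.37 (0.27 in controls). The forkhead gene foxh1.2.L, of the Smad-binding Foxh1 family, rose from 30 and 42 to 1722 and 1285, a change of 5.35 ± 0.34 (adjusted p = 9.8e-06, limma), with 3632 and 1622 in controls. The POU factor gene pou5f3.2.S, a frog relative of mammalian Oct4, rose by 4.04 ± 0.30, from 287 and 291 to 5402 and 4183, below the 12726 and 5672 of controls. In pou5f3.2.L the rise was 1.66 ± 0.26, from 1506 and 1415 to 5020 and 4231. CHX lay above 5 hpf in all 3 genes without overlap, as in every gene called higher. The list kept 7 and 14 of its calls without CHX replicate 1 and 2, and pou5f3.2.L lost its own in both fits (adjusted p = 0.215 and 0.114).

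**Figure D2:**
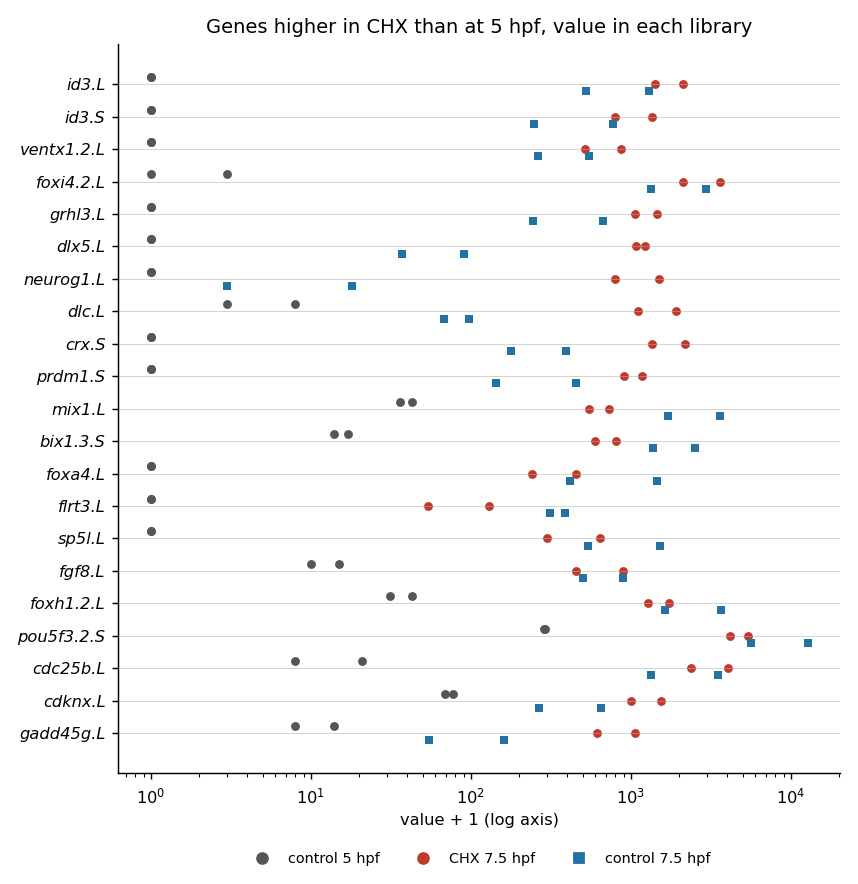
Each row is 1 gene called higher in CHX than at 5 hpf, with value + 1 of each library on a log axis: grey circles are control 5 hpf, red circles CHX 7.5 hpf and blue squares control 7.5 hpf (n = 2 each, overlapping grey points drawn on one another). Red lies far right of grey in every row, whereas red lies right of blue for genes such as neurog1.L and dlc.L, among blue for fgf8.L and left of blue for mix1.L and flrt3.L.

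Immediate early genes, which cells switch on after a stimulus without new protein, were called in both directions. Of 122 listed genes 101 were tested. Of these, 19 were called higher (18.8%, beside 5.75% of all genes), 4 of them listed at 0 at 5 hpf. Of the rest, 2 were called lower, beside 0.256% of all genes, and 80 were not called. The median log2 fold change was 0.20 (-0.11 in controls). The list also holds id3.L and id3.S, described above. The basic leucine zipper gene mafb.S rose from 285 and 287 to 1525 and 1120, a change of 2.19 ± 0.18 (adjusted p = 5.6e-05, limma), with 704 and 676 in controls, and mafb.L went from 0 and 0 to 121 and 97. The gene ier5l.L rose from 839 and 976 to 2602 and 2601 (1.52 ± 0.19) and ier5l.S from 277 and 310 to 1432 and 831. CHX stood clear of 5 hpf for all 4, as it did in every gene called higher.

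The matricellular gene ccn1.S fell by 1.3 ± 0.32 on the log2 scale, from 412 and 291 to 160 and 123 (adjusted p = 0.0398, limma), with 102 and 76 in controls. Its L copy was not called. The gene zfp36l2.1.S, whose protein family speeds the decay of messages rich in A and U, fell by 0.90 ± 0.22, from 2807 and 1928 to 1418 and 1088, with 857 and 650 in controls. Its relative zfp36.S went from 0 and 2 to 94 and 95. On the list, 3 and 5 of the 19 higher calls were kept without CHX replicate 1 and replicate 2, neither lower one was, and of the 7 genes given with values here mafb.S alone stayed called (adjusted p of the others from 0.0635 to 0.455). The ccn1.S call was also lost without either control 5 hpf library (0.0819 to 0.329), that of ier5l.S likewise, those of zfp36.S and zfp36l2.1.S without control 5 hpf replicate 1, and that of zfp36l2.1.S without control 7.5 hpf replicate 1 (0.0553) or 2 (0.0587).

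Of 90 listed stress and growth arrest genes 68 were tested and 8 were called higher (11.8%, beside 5.75% of all genes). A further 2 were called lower, beside 0.256% of all genes, and 58 were not called. The median log2 fold change was 0.00. The growth-arrest gene gadd45g.L rose from 13 and 7 to 1061 and 614 (6.25 ± 0.56, adjusted p = 8.1e-05, limma), far above the 160 and 54 of controls, and gadd45g.S from 37 and 25 to 1051 and 463. The cyclin-dependent kinase inhibitor gene cdknx.L rose by 4.1 ± 0.37, from 68 and 76 to 1548 and 1003, with 645 and 266 in controls. These 3 are linked to growth arrest, and the other higher members of the list are not named here. The endoplasmic reticulum chaperone gene dnajb9.S fell by 1.54 ± 0.36, from 268 and 301 to 107 and 88, with 69 and 120 in controls. The stress kinase gene eif2ak3.S, which damps translation when unfolded protein builds up, fell by 0.73 ± 0.18, from 1161 and 1234 to 654 and 796. The heat shock gene hsp90ab1.S, the most abundant member, was not called (0.09 ± 0.12, adjusted p = 0.82). All 10 calls were lost without CHX replicate 1 (adjusted p of the 5 named genes from 0.0539 to 0.455), and both lower ones without CHX replicate 2 (0.145 and 0.261) or either control 5 hpf library (0.141 to 0.218).

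The cell cycle list was close to the background, with 7 of 119 tested genes called higher (5.88% against 5.75%) and 112 not called, out of 122 in the table. Its median log2 fold change was 0.01. The phosphatase gene cdc25b.L, an activator of cyclin-dependent kinases, rose from 20 and 7 to 4051 and 2358 (7.90 ± 0.50, adjusted p = 9.8e-06, limma), with 3524 and 1331 in controls, and cdc25b.S went from 4 and 0 to 1044 and 513. The S-phase cyclin gene ccne2.L rose by 4.11 ± 0.46 and ccne2.S by 1.63 ± 0.35. The embryonic cyclin gene ccna1.L was not called at 4889 and 4605 at 5 hpf and 5305 and 5388 in CHX (adjusted p = 0.59). Of the 7, cdc25b.L alone kept its call without CHX replicate 1 (cdc25b.S, ccne2.L and ccne2.S had adjusted p from 0.0558 to 0.476), and ccne2.S also lost it without CHX replicate 2 (0.152) or control 5 hpf replicate 1 (0.105) or 2 (0.148).

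Splicing factors remove introns from new transcripts. Of 138 listed genes 136 were tested and 24 were called higher (17.6%, beside 5.75% of all genes). The other 112 were not called, and 49 of the 136 had an unadjusted p under 0.05. The median log2 fold change was 0.25 (0.31 in controls). The U1 particle gene snrnp70.L rose by 1.24 ± 0.15, from 4684 and 5578 to 12357 and 11766 (adjusted p = 0.00063, limma), with 15184 and 11996 in controls, and snrnp70.S from 3698 and 4523 to 7199 and 6737. The gene sfpq.L, which encodes a paraspeckle and splicing protein, rose by 1.69 ± 0.18, from 701 and 984 to 2557 and 2811, and sfpq.S by 1.04 ± 0.17. The splicing activator gene tra2a.L rose by 1.83 ± 0.19, from 368 and 347 to 1449 and 1121. Its S copy was not called (0.35 ± 0.21, adjusted p = 0.48, limma). No CHX library overlapped 5 hpf for the called genes named here, as for every called gene. The most abundant member, hnrnpa1.S, was not called (0.12 ± 0.26, adjusted p = 0.89).

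Among other nuclear protein genes, hnrnpu, hmgb2 and ncl rose in both copies. The nuclear matrix ribonucleoprotein gene hnrnpu.L rose by 0.72 ± 0.17 and hnrnpu.S by 0.77 ± 0.17. The chromatin protein gene hmgb2.L rose by 0.70 ± 0.18, from 5008 and 5889 to 9243 and 8405, and hmgb2.S by 0.79 ± 0.20. The nucleolin gene ncl.L, of ribosome biogenesis, rose by 1.13 ± 0.16, from 1619 and 2149 to 3829 and 4372, and ncl.S by 1.02 ± 0.15. Calls on these modest rises hung on every library compared: 0 and 2 of the 24 splicing calls were kept without CHX replicate 1 and 2, and 8 and 14 without control 5 hpf replicate 1 and 2. Of the 11 genes named here, 0 kept the call without CHX replicate 1 (adjusted p from 0.0542 to 0.588), tra2a.L and sfpq.L alone kept it without CHX replicate 2 (others 0.0741 to 0.321), 5 without control 5 hpf replicate 1 (others 0.058 to 0.311) and 7 without control 5 hpf replicate 2 (others 0.0799 to 0.185).

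In lists of the transcription, translation and RNA turnover machinery, the share called higher lay near or below the 5.75% of all genes. Of all genes 0.256% were called lower. Ribosomal protein genes, of which 135 of 143 were tested, had no member called higher and 1 lower (limma), with 5 at an unadjusted p under 0.05 and a median log2 fold change of -0.07. The lower one was rpl23.S, which fell by 1.02 ± 0.24, from 701 and 470 to 305 and 260 (565 and 419 in controls). Of 108 tested ribosome biogenesis genes 4 were called higher (3.7%) and 1 lower (median 0.04). The lower one was emg1.L, an rRNA methyltransferase gene, which fell by 1.04 ± 0.26, from 302 and 296 to 142 and 147. Its S copy was not called (-0.56 ± 0.29, adjusted p = 0.41, limma). Of 90 translation factor genes 4 were called higher (4.44%, median 0.06). They included the elongation factor genes eef1a1.S (1.58 ± 0.33, from 322 and 328 to 1120 and 849) and eef1a1o.S (1.39 ± 0.23, from 866 and 780 to 2331 and 2000) and the subunit-joining factor gene eif5b.L (0.73 ± 0.14). The copies eef1a1.L (0.78 ± 0.32, adjusted p = 0.25, limma) and eef1a1o.L (0.07 ± 0.18, adjusted p = 0.93) were not called.

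One of 125 tested genes of the RNA polymerase II machinery was called (median 0.11): the elongation kinase gene cdk9.L rose by 1.90 ± 0.36, from 260 and 326 to 1320 and 893, with 2273 and 885 in controls (adjusted p = 0.0098, limma). Its S copy was not called (0.32 ± 0.43, adjusted p = 0.81). The largest polymerase subunit gene, polr2a.S, was at 29047 and 27053 at 5 hpf and 22125 and 20874 in CHX and was not called (-0.38 ± 0.14, adjusted p = 0.17). Of 117 tested mRNA decay genes 1 was called higher and 1 lower (median -0.06), the zfp36 relatives given above. Of 71 tested oocyte transcripts, stored in the egg before EU was given, 1 was called higher, eef1a1o.S, and 70 were not called (median -0.11). All calls of these 6 lists were lost without CHX replicate 1 or 2. For eef1a1.S, eef1a1o.S, eif5b.L, cdk9.L, emg1.L and rpl23.S the adjusted p was then 0.231 to 0.407 and 0.119 to 0.308. Of these 6, eef1a1o.S alone stayed called without control 5 hpf replicate 1 (others 0.107 to 0.296), and emg1.L, eef1a1.S and eef1a1o.S were lost without control 5 hpf replicate 2 (0.0523 to 0.174).

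Of the cell surface and matrix genes 22 of 83 tested were called higher (26.5%, beside 5.75% of all genes), 12 of these listed at 0 at 5 hpf. The other 61 were not called, out of 110 in the table (median log2 fold change 0.18, and 0.14 in controls). The secreted protease gene adamts1.L rose from 35 and 25 to 858 and 610 (4.57 ± 0.37, adjusted p = 4.8e-05, limma), with 1900 and 797 in controls, and adamts1.S from 43 and 7 to 691 and 493. The hyaluronan synthase gene has2.L had 0 and 0 at 5 hpf, 502 and 242 in CHX and 984 and 362 in controls, and has2.S went from 0 and 0 to 121 and 69. The ephrin receptor gene epha4.L went from 0 and 0 to 333 and 214, and epha4.S rose by 2.91 ± 0.67, from 26 and 28 to 303 and 144. The fibronectin gene fn1.S, the most abundant member, was not called at 2637 and 2527 at 5 hpf and 2153 and 2413 in CHX (adjusted p = 0.74). Outside the lists, slc23a2.L, a vitamin C transporter gene, was among the most abundant higher genes: it rose by 2.82 ± 0.32, from 1621 and 1707 to 13704 and 10032, and stood at 36844 and 15272 in controls. The list kept 2 and 8 of its 22 calls without CHX replicate 1 and 2. Among the named genes adamts1.S, epha4.L, epha4.S, has2.S and slc23a2.L lost theirs without CHX replicate 1 (adjusted p from 0.0508 to 0.535), adamts1.S and epha4.S without CHX replicate 2 (0.0792 and 0.177), and epha4.S without control 5 hpf replicate 1 (0.138) or 2 (0.111).

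**Figure D3:**
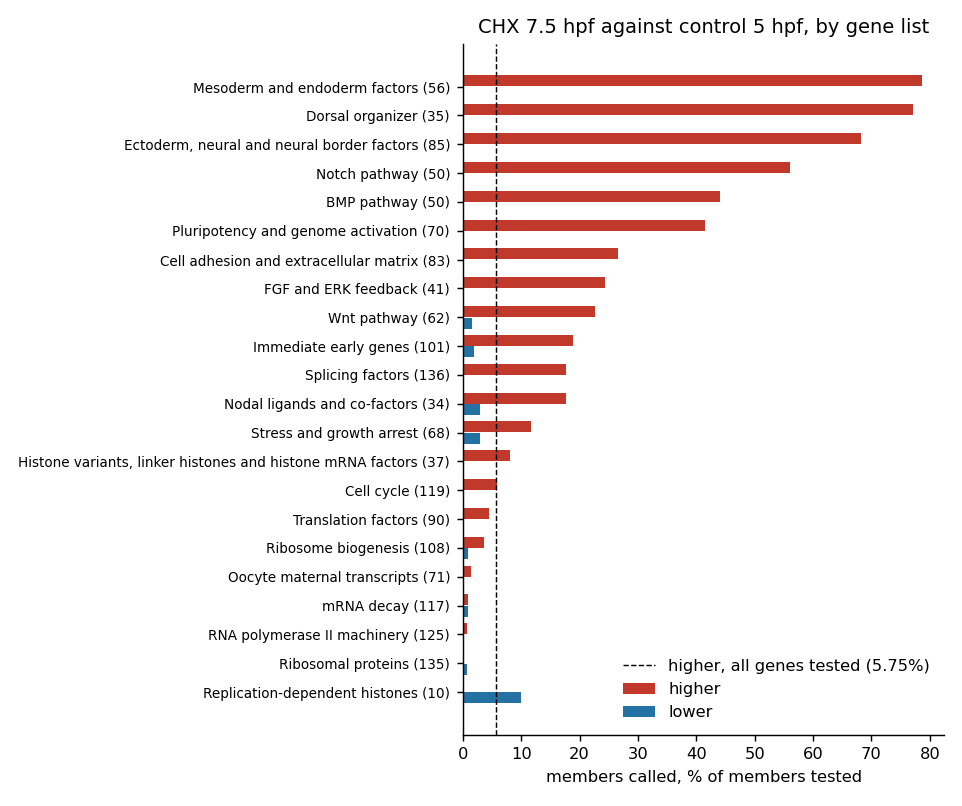
Bars give, for each of 22 gene lists, the percentage of tested members (their number in brackets) called higher (red) or lower (blue) in CHX 7.5 hpf than in control 5 hpf libraries. The dashed line is the 5.75% of all tested genes called higher: the mesoderm and endoderm, organizer and ectoderm lists lie far to its right, the cell cycle list on it, and the ribosomal protein list at 0.

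The 49 lower genes fell by a median of 0.99 on the log2 scale, and in controls over the same interval the median change of the same genes was -0.39. The 49 were picked for low CHX values against 5 hpf, so the smaller median in controls supports nothing by itself. The direct contrast at 7.5 hpf, which uses the same CHX values, called 12 of them lower in CHX (0.355% of all genes), and 37 were not called. The steepest fall among the named genes was that of the nuclear factor gene nfib.L, from 309 and 217 to 37 and 11, with 15 and 33 in controls (-3.61 ± 0.69, adjusted p = 0.0099, limma). The Smad relay gene smad4.1.S followed at a far higher level, from 8557 and 6096 to 2173 and 3156, with 2087 and 1864 in controls (-1.46 ± 0.20, adjusted p = 0.0013). The apoptosis inhibitor gene birc7.S fell by 1.19 ± 0.21, from 849 and 708 to 323 and 358, with 244 and 318 in controls. The uncharacterized gene c7orf25.L fell by 1.43 ± 0.36, from 427 and 358 to 194 and 107, with 93 and 157 in controls. In these 4 genes CHX and untreated embryos at 7.5 hpf both lay below 5 hpf.

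In a second set the untreated embryos lay nearer to 5 hpf. The glycosylation enzyme gene alg8.S had 264 and 220 at 5 hpf, 90 and 110 in CHX and 231 and 164 in controls (-1.27 ± 0.30, adjusted p = 0.034, limma). The retinoic acid receptor gene rara.S had 383 and 317, then 162 and 143, with 246 and 264 in controls. The F-box gene fbxo46.S fell by 1.24 ± 0.31, from 199 and 250 to 79 and 112, with 169 and 174 in controls. The cyclin gene ccny.L fell by 1.08 ± 0.28, from 268 and 220 to 118 and 111. The Groucho co-repressor gene tle1.L, on the Wnt list, fell by 0.69 ± 0.15, from 1043 and 984 to 644 and 609, with 905 and 951 in controls. The adaptor complex gene ap1m2.S fell by 0.70 ± 0.16, from 2772 and 2721 to 1680 and 1700, with 3491 and 2485 in controls. CHX was the lowest of the 3 groups in all 6, but in none of them was the contrast at 7.5 hpf called (adjusted p from 0.078 to 0.54).

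Calls of single lower genes were fragile. Of 12 named, the 10 above with ccn1.S and dnajb9.S, 0 kept the call without CHX replicate 1 (adjusted p from 0.0868 to 0.41), smad4.1.S alone without CHX replicate 2 (others 0.0974 to 0.383) or control 5 hpf replicate 1 (0.0848 to 0.329), and 3 without control 5 hpf replicate 2 (others 0.0662 to 0.262). Without control 7.5 hpf replicate 1 fbxo46.S and ccny.L were lost, and without replicate 2 fbxo46.S and c7orf25.L (0.0519 to 0.0637).

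Replication-dependent histone messages normally lack a poly(A) tail and are kept in step with DNA synthesis. Of 10 such genes tested, h3c8.S was called lower, beside 0.256% of all genes, and 9 were not called. An unadjusted p under 0.05 (limma) was found for 5. The median log2 fold change of the 10 was -0.43, and 0.85 in controls over the interval. The direct contrast at 7.5 hpf called 5 of them lower in CHX than in controls, against 0.355% of all genes. The gene h3c8.S fell by 0.99 ± 0.21, from 3253 and 2643 to 1564 and 1383 (adjusted p = 0.017, limma), and stood at 4615 and 2841 in controls. The variant histone gene h2ax.lS, whose protein marks DNA breaks when phosphorylated, fell by 0.87 ± 0.22, from 16439 and 13500 to 8971 and 7427 (adjusted p = 0.041), with 26316 and 16304 in controls. The most abundant, h2bc11.S, was at 42188 and 50341 at 5 hpf and 35638 and 38481 in CHX and was not called (adjusted p = 0.47). Histone copies are nearly identical, so the split of reads among them is uncertain.

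Of 37 tested histone variant, linker and processing genes 3 were called higher (8.11%, beside 5.75% of all genes) and 34 were not called (median 0.17). The 3 were the chromatin assembly subunit gene chaf1a.L (0.67 ± 0.14), the histone-binding factor gene hirip3.S (0.94 ± 0.20) and slbp.S, which encodes the protein that binds the stem-loop of histone messages (0.76 ± 0.18, from 824 and 793 to 1467 and 1280). The variant gene h2ax.lS, called lower, stood on neither histone list and is not in these counts. All 5 histone-related calls were lost without CHX replicate 1 (adjusted p from 0.248 to 0.43), CHX replicate 2 (0.183 to 0.483) or control 5 hpf replicate 1 (0.0934 to 0.284), those of h3c8.S, h2ax.lS and slbp.S without control 5 hpf replicate 2 (0.0509 to 0.174), and that of hirip3.S without control 7.5 hpf replicate 1 (0.053) or 2 (0.0568).

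**Figure D4:**
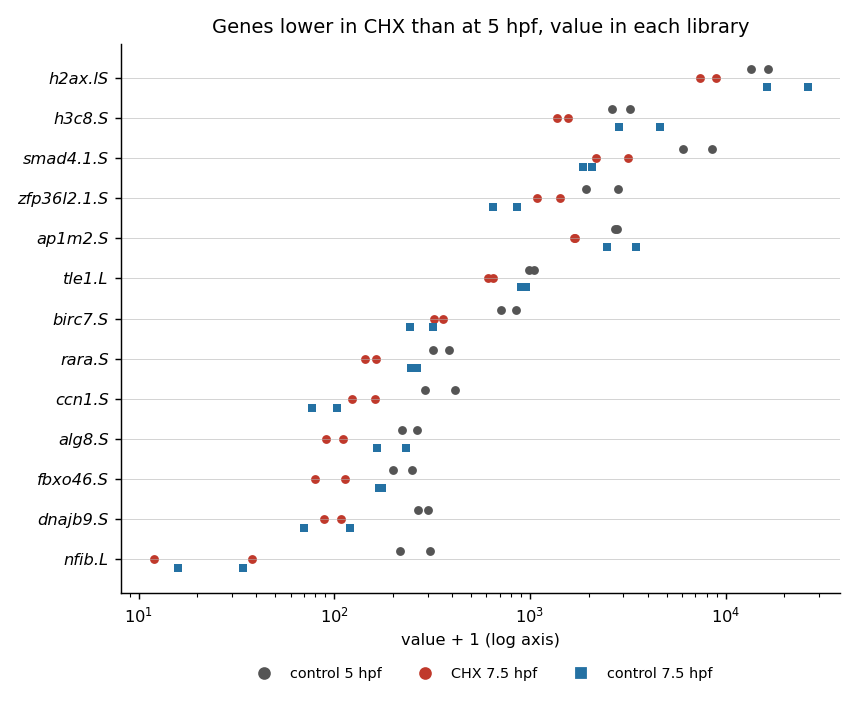
Each row is 1 gene called lower in CHX than at 5 hpf, with value + 1 of each library on a log axis, in grey for control 5 hpf, red for CHX 7.5 hpf and blue squares for control 7.5 hpf (n = 2 each). Red lies left of grey in every row; blue lies with red for nfib.L, smad4.1.S and birc7.S, and to the right of grey or among it for h3c8.S and ap1m2.S.

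Xenopus laevis carries 2 copies of many genes, L and S, from the ancient joining of a pair of ancestral genomes. Both copies were measured in the same libraries, so a like change in both is not independent support for either. Both copies were tested for 4747 genes. In 170 of these pairs both copies were higher and in 209 one copy was, 132 times the L copy and 77 times the S copy. The other copy had a fold change above 0 in 175 of the 209 and below 0 in 34, where the median log2 fold change of all tested genes was 0.02. That other copy was called lower in 1 pair, f11r, and was not called in the rest. One copy was lower in 19 pairs, and both copies were lower in 0. A limma fit of the log2 ratio of the copies, chosen after the data were seen, called a difference in change for 79 pairs (1.66%), 45 with the larger change in L and 34 in S, and 437 had an unadjusted p under 0.05. Both copies were above 0 in all 4 libraries for 47 of the 79. Copies may share reads, which would draw their values together.

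In several regulators the copy that rose more was the one that began lower. The L copy of pou5f3.2 began at 1506 and 1415 against 287 and 291 for the S copy and both ended at a similar level, a difference in log2 change of -2.38 ± 0.13 (L minus S, adjusted p = 4.2e-07, limma). The neural crest and cartilage factor gene sox9.S rose from 15 and 7 to 1440 and 1085 while sox9.L had 231 and 116 and then 242 and 184 (-6.42 ± 0.43). The Wnt receptor gene fzd7.S rose from 72 and 58 to 1196 and 680 and fzd7.L, not called, went from 1870 and 1523 to 3333 and 2544 (-3.0 ± 0.25). In ccne2 the L copy began lower, at 52 and 51 against 446 and 388, and ended at 1076 and 764 against 1599 and 1036 (2.48 ± 0.27). The not copies differed by -2.64 ± 0.24. On the log2 scale a like gain in units weighs more in the lower copy.

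In 3 more pairs the copies parted in another way. The transporter copy slc23a2.S was at 43 and 46 and then 36 and 36 beside the steep rise of slc23a2.L (3.11 ± 0.25, adjusted p = 1.3e-05, limma). The minor copy smad4.1.L had 24 and 23 at 5 hpf and 79 and 75 in CHX, not called, while smad4.1.S fell (3.13 ± 0.35). The junction protein gene f11r was the 1 pair with copies called in opposite directions: f11r.L went from 890 and 701 to 491 and 460 (-0.73 ± 0.19, adjusted p = 0.049) and f11r.S from 643 and 675 to 1162 and 1011 (0.72 ± 0.16, adjusted p = 0.027), a difference of -1.45 ± 0.21 (adjusted p = 0.003). The number of pairs called was 13 without CHX replicate 1, 14 without CHX replicate 2, and 120 and 133 without control 7.5 hpf replicate 1 and 2. The f11r difference was lost without either CHX library (0.165 and 0.0802), and the others named here were kept in every such fit. The separate calls of f11r.L (0.0744 to 0.361) and f11r.S (0.115 to 0.387) were lost without any 1 of the 4 libraries compared.

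**Figure D5:**
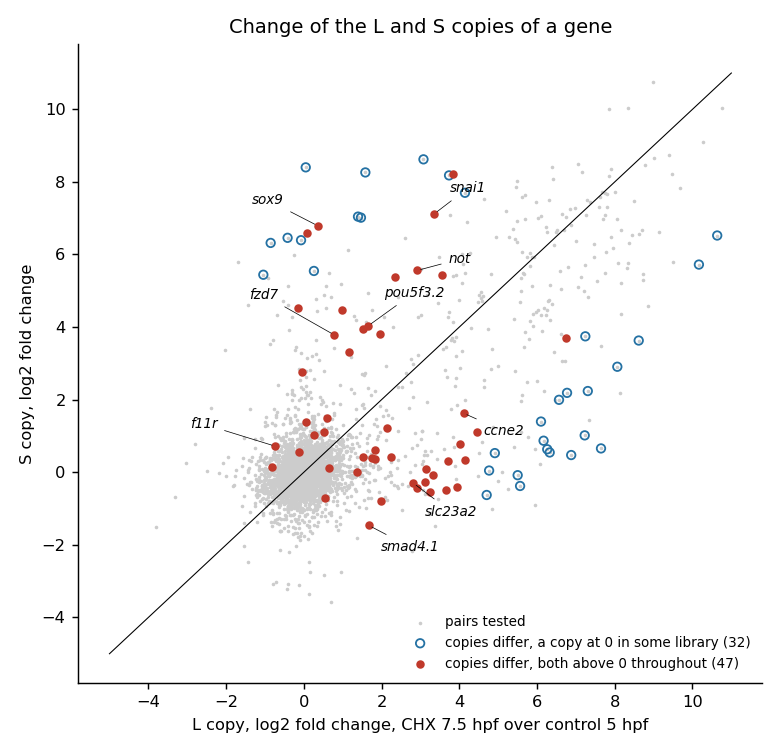
Each point is 1 of 4747 genes with an L and an S copy tested, with the log2 fold change (CHX 7.5 hpf over control 5 hpf) of the L copy on the horizontal axis and of the S copy on the vertical axis. Filled red points are the 47 pairs whose copies differ with both above 0 in all 4 libraries, open blue circles the 32 others that differ, and the line marks equal change: sox9 and fzd7 lie above it, slc23a2 and ccne2 below, and f11r has copies on opposite sides of 0.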

How the data were processed

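Transcripts were quantified by the authors with Salmon 0.12.0 and then normalized with DESeq2, per the submitters' processing notes. Genome build, annotation and strand setting, not given in the sources used here, are therefore not named. Values as deposited are taken to be a score: counts that the authors divided by 1 factor per library and rounded, a reading that rests on the totals and on the regular spacing of low values, which also gave the estimated depth. Whole reads could not be recovered, so no count test was run.

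Genes with a mean of at least 12 over the 6 libraries were compared on the log2(value + 1) scale by limma 3.58.1, run in R 4.3.3, with 3 groups, an intensity trend and 3 residual degrees of freedom (prior 7.346). Tests were two-sided, adjusted by Benjamini-Hochberg over all 19149 genes and called under 0.05. Fold changes on this scale understate those of low genes. The test was checked on simulated data. The 1738 entries with a repeated name (482 names) were kept apart.

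Members and the 22 gene lists were chosen with earlier results of these data known. Genes were named by rule: per direction the 10 largest called changes of genes with a symbol, a mean of at least 50 over the 4 libraries and no overlap, the 5 most abundant called genes, and per list its most abundant member and up to 3 called members per direction by smallest adjusted p, with the other copy of each. A gene that the rule names is not reported here. Some genes stand on more than 1 list, and not every other copy is printed. The genes pou5f3.2, sox9, slc23a2.S, fzd7, not, ccne2, smad4.1.L, f11r, sox17b.1.L and ier5l, and those of the other observations, were named after their values were seen. Alternatives were other pseudocounts, filters, scalings, fits and variance models, thinning to equal depth, and leaving out each library. Python 3.11.15, pandas 2.3.3, numpy 2.4.6 and matplotlib 3.10.9 made tables and figures.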

Additional observations from a re-analysis of the deposited data

Results flagged for a closer look

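For 9 of the genes chosen by the naming rule and called against 5 hpf, the change from 5 hpf with the drug differed from the change without it, by the limma contrast of CHX with control embryos at 7.5 hpf (n = 2 against 2, Benjamini-Hochberg adjusted over all genes). Genes that pass the filter only through the CHX libraries, such as neurog1.L, are left out here. Groups of 2 allow no search for single outlying libraries.

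Of the 9 genes, 3 stood lower with the drug. The log2 difference, CHX minus control, was -1.97 ± 0.32 (SE, adjusted p = 0.0254) for mix1.L, which rose less than in untreated embryos. It was -1.34 ± 0.22 (adjusted p = 0.0250) for h2ax.lS and -1.30 ± 0.21 (adjusted p = 0.0255) for h3c8.S, which fell below 5 hpf with the drug and not without it.

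The other 6 stood higher with the drug. The difference was 1.59 ± 0.22 for fgfr4.L (adjusted p = 0.0153), 3.08 ± 0.53 for dll1.L (0.0358), 3.1 ± 0.56 for gadd45g.L (0.0451) and 4.15 ± 0.55 for dlc.L (0.0153). For dlx5.L it was 4.31 ± 0.65 (adjusted p = 0.0195) and for foxi1.S 4.53 ± 0.64 (0.0164, limma). Both CHX libraries lay above both controls at 7.5 hpf in each of these 6 genes and below them in each of the other 3. The contrast was also called for h2bc11.S (-0.98 ± 0.18, adjusted p = 0.0459), which was not called against 5 hpf, and for hes4.L (2.49 ± 0.43, 0.0358) and insm1.L (1.98 ± 0.22, 0.00786), both named after their values were seen.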

How the results depend on the processing

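The count of higher genes (1101) was 661 with no filter on low values, 539 with only genes above 0 in all 4 libraries and 693 with no intensity trend, and lay between 78 and 1265 with 1 library left out. The count of lower genes (49) was 10 with no filter, 10 with no trend, 86 scaled on totals, 30 scaled on oocyte transcripts, 88 in a fit to the 4 libraries alone and 174 with library weights, and lay between 1 and 79 with 1 library left out. The number of pairs whose copies differed (79) was 32 with no filter, 130 in the fit to 4 libraries, 31 with no trend and 151 with weights, and lay between 13 and 133 with 1 library left out. The restriction to genes above 0 in all 4 libraries removes the genes listed at 0 at 5 hpf by construction; the cause of the other shifts was not tested. Scaling on totals moved the median of all genes to -0.07 and scaling on oocyte transcripts moved it to 0.06.

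When the replicate number entered as a block, the counts were 1258 higher, 103 lower and 115 pairs. No label ties same-numbered libraries together. Their deviations from the group means correlated at 0.008 between the control stages, -0.02 between 5 hpf and CHX and 0.13 between the 2 groups at 7.5 hpf, so no pairing was used.

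Of 136 called genes named by the rule or after their values were seen, 128 stayed called at a pseudocount of 0.5, 94 with no filter, 72 with no intensity trend, 124 scaled on oocyte transcripts and 120 when thinned to equal depth. Without CHX replicate 1 or replicate 2, 33 and 69 stayed called. The depth of the 5 hpf libraries limits what can be said of genes below about 3 reads there.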

Other observations

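Families of regulators, some with members on the lists, are counted here. They were picked by the shared start of their symbols after the values were seen, so their counts are descriptions and no test attaches to them. All 10 tested ventx genes were higher in CHX than at 5 hpf (limma, adjusted p under 0.05), as were 9 of 10 foxd, 25 of 32 hes, 7 of 9 gata, 7 of 9 lhx, 5 of 8 tbx, 6 of 10 zic, 15 of 27 sox, 9 of 17 pcdh, 4 of 8 nkx and 9 of 20 pou genes, beside 5.75% of all genes tested. Of the called members, those listed at 0 at 5 hpf, which could not lie below it, numbered 2 for ventx, 4 for foxd, 6 for hes, 5 for gata, 4 for lhx, 3 for tbx, 3 for zic, 4 for sox, 4 for pcdh, 2 for nkx and 4 for pou.

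Several single genes of these and related families were named after their values were seen. The neural plate zinc finger gene zic1.S had 30 and 12 at 5 hpf and 1595 and 1346 in CHX, and zic1.L 35 and 0 and then 1689 and 1296. The Hes repressor gene hes4.L rose from 113 and 204 to 3271 and 2083, where untreated embryos at 7.5 hpf had 774 and 278. The protocadherin gene pcdh18.L, whose product sits on the cell surface, went from 0 and 0 to 997 and 683, with 157 and 105 in controls. The germ cell and pluripotency regulator gene prdm14.L had 2 and 2 at 5 hpf, 767 and 586 in CHX and 27 and 5 in untreated embryos at 7.5 hpf. It passed the filter only through the CHX libraries, so its place above the controls supports nothing by itself. The neuroendocrine zinc finger gene insm1.L rose from 203 and 201 to 2733 and 2113 (log2 fold change 3.57 ± 0.22, adjusted p = 9.8e-06), with 763 and 487 in controls. The neural crest gene foxd3.L went from 7 and 0 to 465 and 330, and the endoderm factor gene gata4.S from 0 and 0 to 330 and 284. The SoxC factor gene sox11.S, already abundant, rose from 2459 and 2214 to 5564 and 4338. Both CHX libraries stood above both 5 hpf libraries in all of these.

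A further 6 lower genes were named after their values were seen. The mitotic ubiquitin-conjugating enzyme gene ube2c.L fell by 1.07 ± 0.24 on the log2 scale, from 507 and 424 to 226 and 216, with 146 and 197 in controls. The histone methyltransferase gene suv39h1.L fell by 0.63 ± 0.16, from 874 and 911 to 548 and 602, and mepce.L, which caps the 7SK RNA, fell by 0.64 ± 0.16, from 1102 and 943 to 622 and 686. The mitochondrial ATP synthase gene atp5f1a.L fell by 0.86 ± 0.17, from 799 and 904 to 485 and 453, with 465 and 498 in controls. The potassium channel gene kcnk5.S fell by 0.86 ± 0.18, from 1041 and 1241 to 550 and 709, and ptgfrn.S by 0.81 ± 0.17, from 1094 and 994 to 539 and 657. All 6 calls were lost without any 1 of the 4 libraries compared (adjusted p from 0.0511 to 0.425).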
